A study of Mus musculus with 9 samples.

Results

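The genes described here encode 5 EGF-like ligands (Areg, Ereg, Btc, Hbegf and Nrg1) and the 4 ERBB receptors (Egfr, Erbb2, Erbb3 and Erbb4). These 9 genes were taken by symbol from the 52025 genes that each expression table lists. RNA-Seq covered Kunming mice, an outbred stock, at postnatal day (PD) 14, PD15 and PD16, the window in which the follicular antrum first forms, and no allele or treatment separated the groups. Each day had 3 libraries, which the study describes as biologically independent ovaries. The labels name ovary as the tissue but granulosa cells as the source, whereas the study's methods describe RNA from ovaries. The libraries held the markers of several cell types: 10 of 10 granulosa cell markers, 12 of 12 oocyte markers, 8 of 8 theca and interstitial markers and 6 of 6 endothelial markers passed the expression filter. Summed oocyte markers ran from 958 to 1353 FPKM, so the values below are described as those of ovaries. In such mixed tissue, fewer cells of a type and less RNA per cell cannot be told apart.

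ERBB receptors are receptor tyrosine kinases that work as pairs. Areg, Ereg, Btc and Hbegf encode ligands of EGFR, some of which also bind ERBB4, while Nrg1 encodes a ligand of ERBB3 and ERBB4. ERBB2 has no known ligand of its own and is the favoured partner of the other receptors. The ligands are made as membrane-anchored precursors and are released by ADAM metalloproteases. In the mature ovary, Areg, Ereg and Btc are known as the granulosa cell genes that the luteinizing hormone surge switches on, and their products carry its signal to the cumulus cells around the oocyte.

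The promoters of 3 of these genes are shown because they carry contrasting features. Areg was at the limit of detection, while Erbb2 and Egfr were the most abundant of the 9 genes. Each is the 250 bases upstream of the RefSeq start (GRCm38.p6), which is on the plus strand for all 3, at chr5:91139349-91139598 for Areg, chr11:16751953-16752202 for Egfr and chr11:98412234-98412483 for Erbb2. The RefSeq table matched 5 of the 9 genes. Capitals mark any match on either strand to TATAAA, the TATA box, to CCAAT, to GGGCGG, the GC box, or to TGACGTCA, the full cAMP response element.
Areg: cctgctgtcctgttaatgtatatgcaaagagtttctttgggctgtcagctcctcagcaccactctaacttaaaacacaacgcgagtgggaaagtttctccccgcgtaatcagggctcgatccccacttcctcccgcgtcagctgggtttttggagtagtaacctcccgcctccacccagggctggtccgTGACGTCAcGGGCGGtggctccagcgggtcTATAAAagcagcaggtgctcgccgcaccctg
Egfr: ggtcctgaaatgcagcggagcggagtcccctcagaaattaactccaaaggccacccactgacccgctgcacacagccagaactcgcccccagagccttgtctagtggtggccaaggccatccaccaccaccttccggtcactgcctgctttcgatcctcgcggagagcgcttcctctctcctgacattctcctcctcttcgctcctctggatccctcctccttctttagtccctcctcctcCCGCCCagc
Erbb2: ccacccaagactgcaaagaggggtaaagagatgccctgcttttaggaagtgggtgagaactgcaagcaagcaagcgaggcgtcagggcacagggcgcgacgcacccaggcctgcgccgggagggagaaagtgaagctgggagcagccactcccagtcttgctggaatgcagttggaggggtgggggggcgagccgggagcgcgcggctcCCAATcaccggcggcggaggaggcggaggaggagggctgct
The Areg promoter held TGACGTCA at position -61, GGGCGG at -52 and TATAAA at -31, where -1 is the last base before the start and the position is that of the first base printed. Of 32851 promoters of this length, 1.55% held TGACGTCA, 32.7% held GGGCGG and 12.4% held TATAAA. The Egfr promoter held a single match, the GC box at -9, read on the minus strand. In the Erbb2 promoter CCAAT stood at -41, a motif found in 33.8% of promoters. GC content was 57.2% in Areg, 60.8% in Egfr and 66% in Erbb2, against a median of 52.4%. The promoters of Btc and Erbb4 held none of the 4 motifs in this window. A match describes these letters only.

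Expression was given as FPKM, fragments scaled to transcript length and library depth, so levels can be compared between genes per length. The step between low FPKM gave a depth of 20.4 to 28.7 M fragments a library (median 24.2 M). Of the 9 genes, 4 (Hbegf, Egfr, Erbb2 and Erbb3) had a mean FPKM over 1 for some day and were tested among 15495 genes. Erbb3 passed only through PD14, the day on which it was highest. Areg, Ereg, Btc, Nrg1 and Erbb4 stayed below the filter on every day and had no limma test in the filtered fit.

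Between PD14 and PD16, Hbegf rose 1.54-fold and Erbb2 fell to 0.687 of its PD14 level, while the ratio of means of Egfr was 1.09. By limma, 2 of the 4 tested genes passed an adjusted p under 0.05 in this comparison, 1 higher and 1 lower, against 4.25% of all tested genes (2.36% higher, 1.89% lower). Between PD14 and PD15 none of the 4 passed, against 0.678% of all tested genes, and between PD15 and PD16 again none, against 0.729%. At an unadjusted p under 0.05, 2 of the 4 passed by limma for PD15 against PD14, where 14.7% of tested genes did, and 1 for PD16 against PD15, where 14.1% did. For PD16 against PD14 the 2 called genes were also the 2 under this threshold, against 22.8%. Across the 3 days, the limma F test called Hbegf alone among the 4, against 3.03% of tested genes.

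The order of levels was the same on all 3 days for the most abundant genes. Erbb2 was highest, Egfr followed and Hbegf was next, and on each day the libraries of these 3 genes did not overlap. Erbb3 came after Hbegf, at a level that overlapped with the next gene on each day. Nrg1, Btc and Ereg lay between 0.381 and 1.04 FPKM, in that order by mean on PD14 and PD15. On PD16 the mean of Btc was above that of Nrg1, but their libraries overlapped. Areg and Erbb4 were lowest and overlapped on every day. The panels of FPKM by day show each library of the 9 genes.

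**Figure D1:**
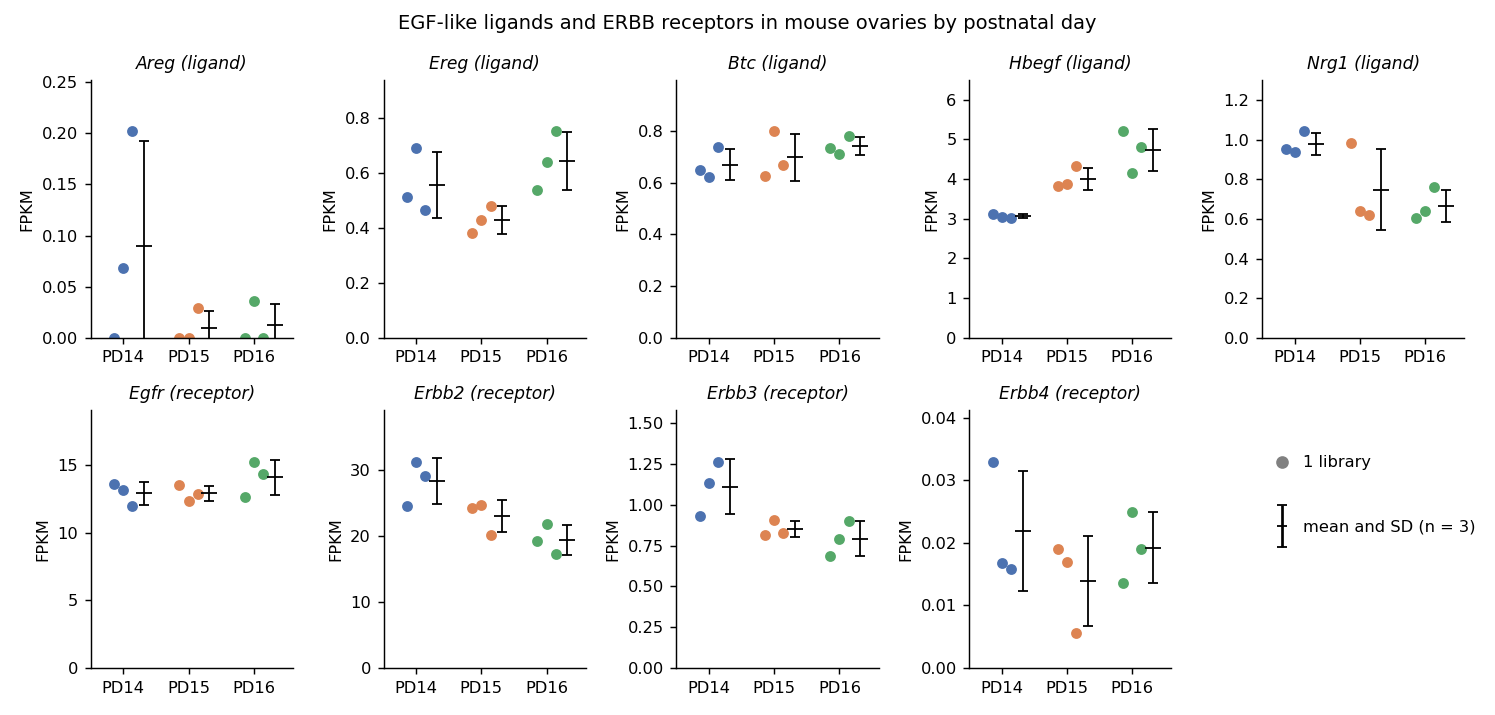
FPKM of the 5 ligands and 4 receptors (vertical axes, each starting at 0) by postnatal day, with a point for each library and the mean and SD beside it (n = 3). The PD14 points of Hbegf, from 3.02 to 3.13, lie below all later points, and the PD16 points of Erbb2, from 17.2 to 21.8, lie below all PD14 points.

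Among the ligands, Hbegf, which encodes heparin-binding EGF-like growth factor, was the most abundant of the 5. On PD14 its FPKM was 3.13, 3.05 and 3.02 in the 3 libraries. PD15 gave 3.82, 3.88 and 4.33, and PD16 gave 5.20, 4.16 and 4.80. Every PD15 and PD16 library was thus above every PD14 library, while PD15 and PD16 overlapped. The mean went from 3.07 ± 0.0561 (SD, n = 3) on PD14 to 4.01 ± 0.276 on PD15 and 4.72 ± 0.526 on PD16. On the log2(FPKM + 1) scale, which understates changes of low genes, the rise from PD14 to PD16 was 0.49 (SE 0.08, 95% interval 0.31 to 0.67, limma adjusted p = 0.0172). From PD14 to PD15 the difference was 0.30 (adjusted p = 0.135 by limma) and from PD15 to PD16 it was 0.19 (adjusted p = 0.324). Over the 3 days the limma F test gave an adjusted p of 0.0330. The exact permutation test over 280 groupings of the libraries gave p = 0.00714, where the smallest possible is 0.00357, and 18.5% of tested genes were under 0.05 in this test. Adjusted over all tested genes, this exact p was 0.156, and no gene passed 0.05 after that adjustment. The limma call for PD16 against PD14 was lost without PD14 replicate 3 (adjusted p = 0.0659) or PD16 replicate 1 (0.0645) and with no filter (0.0508), and it ranged from 0.0155 to 0.0659 over 19 alternatives. The F test call held in 9 of 18 alternatives, with an adjusted p of up to 0.0975.

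Areg, which encodes amphiregulin, was barely present. Its FPKM was 0, 0.0681 and 0.202 on PD14, from 0, 2 and 5 fragments. On PD15 a single library had a value, 0.0286 from 1 fragment, and the other two were at 0. On PD16, too, a single library had a value, 0.0363 from 1 fragment. In 8 of the 9 libraries the level was under the 3 fragments that a count of 0 allows, which equal 0.0859 to 0.121 FPKM, so no fold is given and no change was detectable at this depth (exact permutation p = 0.286). With a library left out, this exact p ran from 0.0357 to 0.679.

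Ereg, which encodes epiregulin, was measured at 0.514, 0.692 and 0.464 FPKM on PD14. PD15 gave 0.381, 0.428 and 0.481, and PD16 gave 0.539, 0.640 and 0.752. The PD16 libraries lay above all PD15 libraries, with a mean 49.9% higher, and both days overlapped with PD14. With no filter on low values, the limma difference from PD15 to PD16 was 0.20, with an unadjusted p of 0.0401 and an adjusted p of 0.480. The exact permutation test over the 3 days gave p = 0.0714, and 0.0464 to 0.211 with a library left out. Ereg shares 141 of its 4128 exon bases with Gm42532, an antisense gene on the opposite strand whose mean FPKM was 4.22, 3.09 and 3.90 on the 3 days. Whether counting used strand is not given in the sources used here, and fragments of the shared bases cannot then be told apart.

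Btc, which encodes betacellulin, did not separate the days. Its FPKM was 0.650, 0.623 and 0.739 on PD14, 0.626, 0.799 and 0.670 on PD15, and 0.734, 0.711 and 0.783 on PD16. All 3 days overlapped, and the exact permutation p was 0.421. Areg, Ereg and Btc lie on chromosome 5 in GRCm38, Ereg at chr5:91074622-91093646, Areg at chr5:91139599-91148432 and Btc at chr5:91357261-91402994.

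Nrg1, which encodes neuregulin 1, had FPKM of 0.954, 0.940 and 1.04 on PD14. PD15 gave 0.987, 0.641 and 0.619, and PD16 gave 0.604, 0.638 and 0.760. The PD16 libraries were all below the PD14 libraries, with a ratio of means of 0.682, and the first PD15 library was at the PD14 level. Its mean on PD14 was 0.979, just under the filter, so Nrg1 was not tested. With no filter on low values, the limma difference from PD14 to PD16 was -0.25 with an unadjusted p of 0.0378 and an adjusted p of 0.315. Over the 3 days the exact permutation p was 0.111, and it ran from 0.0321 to 0.229 with a library left out.

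Of the receptors, Erbb2 (chr11:98412470-98437716, plus strand) was the most abundant. Its FPKM was 24.5, 31.3 and 29.1 on PD14. PD15 gave 24.3, 24.7 and 20.2, and PD16 gave 19.2, 21.8 and 17.2. All PD16 libraries were below all PD14 libraries, while PD15 overlapped with both other days. The mean was 28.3 ± 3.46 (SD, n = 3) on PD14, 23.0 ± 2.47 on PD15 and 19.4 ± 2.30 on PD16. From PD14 to PD16, log2(FPKM + 1) of Erbb2 changed by -0.52 (SE 0.12, 95% interval -0.78 to -0.26, limma adjusted p = 0.0408). The difference was -0.28 from PD14 to PD15 (adjusted p = 0.294 by limma) and -0.24 from PD15 to PD16 (adjusted p = 0.394). The F test over the 3 days gave an adjusted p of 0.0785 by limma, and the exact permutation p was 0.0179 (adjusted over all tested genes, 0.191). With a library left out, the unadjusted exact p ran from 0.0143 to 0.0857.

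This Erbb2 call was lost without any of 6 libraries: PD14 replicate 2 (adjusted p = 0.0940 by limma), PD14 replicate 3 (0.129), PD15 replicate 1 (0.0579), PD15 replicate 2 (0.0558), PD16 replicate 1 (0.117) or PD16 replicate 3 (0.0894). Other settings that lost it were no filter (0.103), no intensity trend (0.0530), only the 2 days in the fit (0.0612) and a replicate block (0.0507). In all, 9 of the 19 alternatives kept the call. Over the 19 the log2 change ran from -0.62 to -0.44 and never changed sign. Erbb2 shares 9 of its 5210 exon bases with Mien1 on the opposite strand, whose mean FPKM was 10.1, 8.89 and 9.43 on the 3 days.

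Egfr (chr11:16752203-16918158, plus strand), the receptor of most of these ligands, was measured at 13.6, 13.1 and 12.0 FPKM on PD14. PD15 gave 13.5, 12.4 and 12.8, and PD16 gave 12.7, 15.3 and 14.3. The libraries of all 3 days overlapped. By limma the log2 difference from PD14 was 0.00 on PD15 (95% interval -0.17 to 0.17, adjusted p = 0.996). On PD16 the difference was 0.12 (95% interval -0.06 to 0.29, adjusted p = 0.403), so a rise of up to 0.29 lies within the interval. This difference was 0.19 without PD16 replicate 1 (adjusted p = 0.242 by limma), 0.06 without PD16 replicate 2 and 0.07 without PD14 replicate 3. The exact permutation p over the 3 days was 0.300.

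Erbb3 (chr10:128567523-128589652, minus strand), the receptor of neuregulins with a weak kinase of its own, was at 0.929, 1.14 and 1.26 FPKM on PD14. PD15 gave 0.816, 0.908 and 0.827, and PD16 gave 0.684, 0.791 and 0.902. Each PD15 and PD16 library was below each PD14 library, with ratios of means of 0.766 and 0.714. The limma differences of -0.19 from PD14 to PD15 (adjusted p = 0.455) and -0.23 from PD14 to PD16 (adjusted p = 0.231) did not pass. The exact permutation p was 0.0286, or 0.215 adjusted over all tested genes. With a library left out, the unadjusted exact p ran from 0.0143 to 0.0786. Because Erbb3 passed the filter only on its highest day, these values are a description.

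Erbb4, the other neuregulin receptor, was near the detection limit, between 0.00563 and 0.0330 FPKM, from 2 to 10 fragments per library. PD14 gave 0.0330, 0.0168 and 0.0159, PD15 gave 0.0191, 0.0170 and 0.00563, and PD16 gave 0.0136, 0.0250 and 0.0191. The 3 days overlapped (exact permutation p = 0.529).

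The non-overlap of libraries can be counted over all 9 genes. From PD14 to PD15, 2 genes did not overlap (Hbegf higher, Erbb3 lower), against 13.9% of the 33957 genes with any value. From PD14 to PD16 there were 4 (Hbegf higher, Nrg1, Erbb2 and Erbb3 lower), against 17.6%. From PD15 to PD16 there was 1 (Ereg higher), against 13.5%. Comparisons with PD14 share its libraries, so the first 2 counts are not independent. The plot of changes between days gives the tested genes with their intervals.

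**Figure D2:**
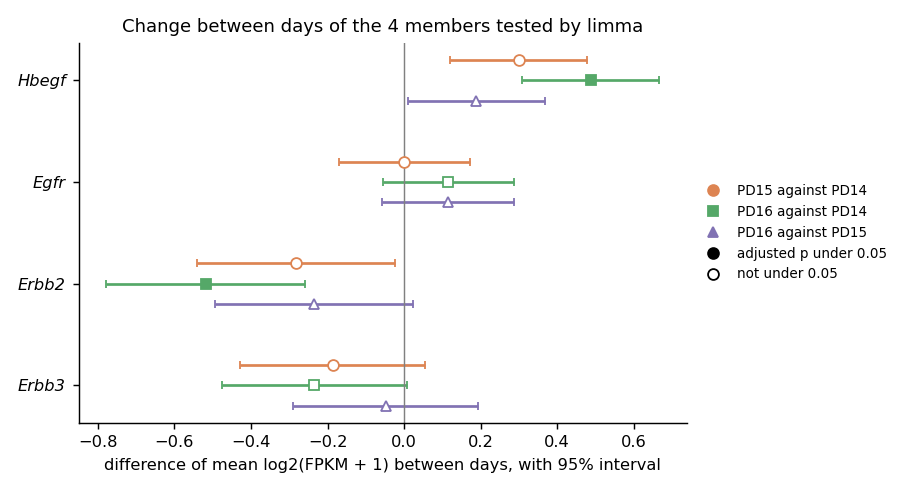
Differences of mean log2(FPKM + 1) between days (horizontal axis) for the 4 tested genes, with unadjusted 95% intervals from limma. Filled symbols mark an adjusted p under 0.05, which only Hbegf at 0.49 and Erbb2 at -0.52 reached, both for PD16 against PD14.

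The balance among the receptors was computed in each library, a description chosen after the values were seen. Erbb2 FPKM per Egfr FPKM was 1.80 to 2.43 on PD14, 1.57 to 1.99 on PD15 and 1.20 to 1.52 on PD16, with means of 2.21 ± 0.351 (SD, n = 3), 1.79 ± 0.210 and 1.38 ± 0.164. The PD16 ratios lay below all ratios of the other two days. Of the summed FPKM of the 4 receptors, Erbb2 made up 66.7% on PD14, 62.5% on PD15 and 56.6% on PD16, and Egfr 30.6%, 35.1% and 41.1%. Hbegf made up 57.2%, 68.0% and 69.5% of the summed FPKM of the 5 ligands. The summed ligands went from 5.36 ± 0.111 to 6.79 ± 0.522 FPKM between PD14 and PD16, and the summed receptors from 42.3 ± 3.25 to 34.3 ± 3.09.

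**Figure D3:**
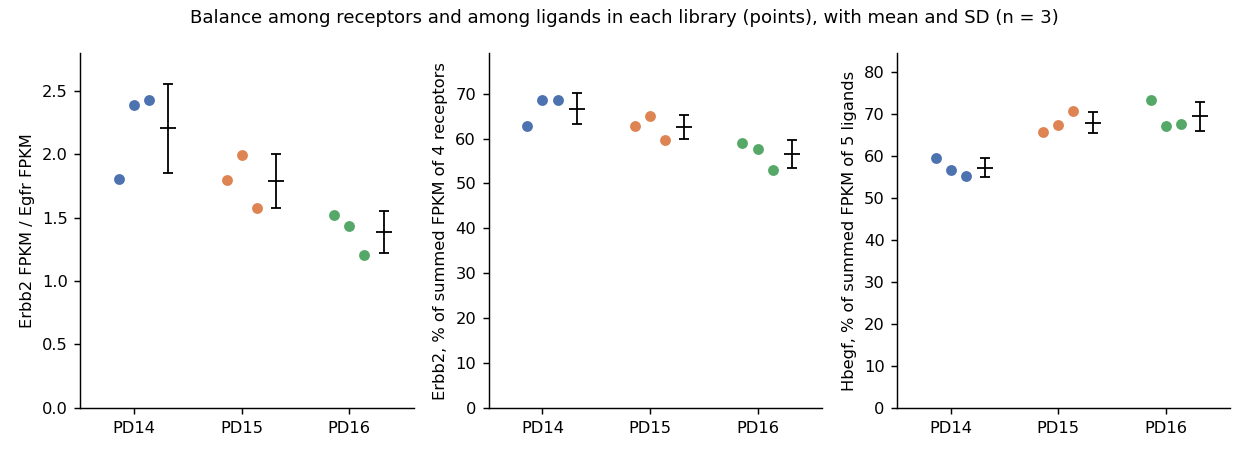
Erbb2 FPKM divided by Egfr FPKM, the share of Erbb2 in the summed FPKM of the 4 receptors and the share of Hbegf in that of the 5 ligands, with a point for each library and the mean and SD (n = 3), all axes from 0. The ratio lies between 1.20 and 1.52 on PD16 and between 1.80 and 2.43 on PD14, and the Hbegf share rises from a mean of 57.2% to 69.5%.

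The genes closest to Hbegf over the 9 libraries were found by the root mean square difference of centred log2(FPKM + 1). These were Polr3g, a subunit of RNA polymerase III, at 0.0379, Nol8, a nucleolar protein, at 0.0464, and Tiparp, an ADP-ribosyltransferase, at 0.0490, where the SD of Hbegf itself was 0.227. Mean FPKM of Polr3g was 5.82, 7.29 and 8.31 on the 3 days, of Nol8 10.2, 12.4 and 14.2, and of Tiparp 14.3, 18.1 and 20.7. This is a likeness of profile only.

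Other genes of the pathway were described from 6 lists with 81 genes, of which 68 were tested. In PD16 against PD14, 5 of the 68 passed by limma, beside the 4.25% of all tested genes, and 2 passed in PD16 against PD15, beside 0.729%. None passed in PD15 against PD14, where 0.678% of all tested genes did. At an unadjusted p under 0.05 in that comparison, 9 of the 68 passed, beside 14.7% of all tested genes. The genes that passed at an adjusted p under 0.05 in any of the 3 comparisons numbered 7.

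Among the 6 other EGF-like ligands, 3 were tested and none passed in any comparison. For PD16 against PD14 their median was 0.21, beside 0.01 over all tested genes, and 2 of the 3 had an unadjusted limma p under 0.05, as did 22.8% of all tested genes. Tgfa, which encodes another EGFR ligand, exceeded Hbegf at 5.07 FPKM on PD14, 5.87 on PD15 and 6.10 on PD16 (log2 difference 0.22 from PD14 to PD16, adjusted p = 0.118). Egf, the founding ligand, stayed at 0.294 to 0.322 FPKM on average.

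Of 9 genes for ligand release, a list that includes the metalloprotease inhibitor Timp3, 8 were tested. For PD16 against PD14, 1 passed, beside 4.25% of all tested genes. Adam17, which encodes the main sheddase of HB-EGF and amphiregulin, rose from 18.6 ± 1.17 (SD, n = 3) on PD14 to 23.5 ± 1.54 on PD16 (log2 change 0.32, SE 0.07, limma adjusted p = 0.0363). Its PD16 libraries, from 22.0 to 25.1 FPKM, did not overlap with the PD14 libraries, from 17.3 to 19.5. PD15 lay between, at 21.8 ± 1.00. The other 7 tested genes did not pass, 3 with a positive and 4 with a negative difference, among the latter Timp3 at -0.09. The median of the list, Timp3 included, was -0.02.

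In the list of receptor adaptors and the RAS-MAPK cascade, 1 of 19 genes passed for PD16 against PD14, a share near the 4.25% of all tested genes. Map2k1, which encodes the ERK kinase MEK1, rose from 23.5 ± 1.48 FPKM on PD14 to 33.6 ± 4.20 on PD16 (log2 change 0.49, SE 0.11, adjusted p = 0.0384 by limma). It was already at 33.8 ± 4.01 on PD15, where the adjusted p was 0.0794. The cascade's median was 0.03, with 12 genes above and 7 below 0. Among the 20 negative feedback genes, 19 were tested and none passed by limma, with 4 at an unadjusted p under 0.05 for PD16 against PD14, beside 22.8% of all tested genes. Their median was -0.07, with 6 genes positive and 13 negative. Lrig1, a membrane protein that promotes receptor turnover and the gene of this list with the highest mean over the 9 libraries, was at 17.6, 17.7 and 16.7 FPKM on the 3 days.

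Of the 22 immediate early genes that respond to ERK, 17 were tested. In PD16 against PD14, 3 passed, beside 4.25% of all tested genes, and 8 had an unadjusted limma p under 0.05, beside 22.8%. In PD16 against PD15, 2 passed, beside 0.729%, and 7 were under that threshold, beside 14.1%. Myc, a transcription factor of cell growth, rose from 17.2 ± 2.56 on PD14 to 28.6 ± 5.19 FPKM on PD16 (log2 change 0.70, SE 0.14, limma adjusted p = 0.0294). Klf4, a zinc finger factor, rose from 2.53 to 3.97 FPKM (0.49, adjusted p = 0.0472 by limma). Etv5, an ETS factor, fell by 0.29 from a mean of 6.86 FPKM (log2 scale, SE 0.06, adjusted p = 0.0301 by limma). In PD16 against PD15, Fos, an AP-1 subunit, rose from 0.955 to 2.40 FPKM (0.81, adjusted p = 0.0434 by limma). Klf6 rose from 11.0 to 14.9 FPKM in the same comparison (0.40, adjusted p = 0.0494). The list's median was 0.03 for PD16 against PD14, with 13 genes positive and 4 negative. For PD16 against PD15 it was 0.14 (15 positive, 2 negative), and for PD15 against PD14 it was -0.06 (5 positive, 12 negative). The median over all tested genes was 0.01 in each of these comparisons.

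These 7 calls stood close to the threshold. With PD14 replicate 1, PD16 replicate 1 or PD16 replicate 3 left out, 0 list genes were called, and without PD14 replicate 3 there was 1. Without PD15 replicate 2 there were 2, without PD14 replicate 2 or PD16 replicate 2 there were 3, and without PD15 replicate 1 or PD15 replicate 3 there were 4. Their log2 changes kept their signs over the 19 alternatives, with that of Myc from 0.58 to 0.84 and that of Adam17 from 0.27 to 0.36. Of the 19, Myc kept its call in 12, Etv5 in 10, and Map2k1 and Fos in 9 each. Adam17 kept its call in 8, Klf4 in 7 and Klf6 in 6.

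**Figure D4:**
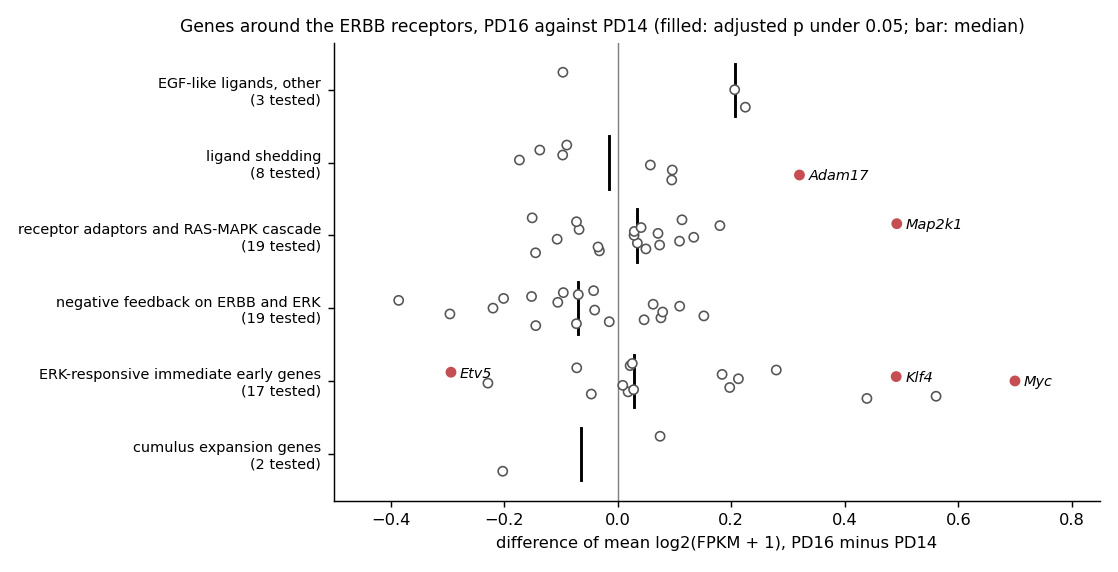
Differences of mean log2(FPKM + 1), PD16 minus PD14 (horizontal axis), of the 68 tested genes in 6 lists around the ERBB receptors, with a point for each gene and a bar for the median of each list. Filled points mark an adjusted p under 0.05 by limma: Adam17, Map2k1, Klf4 and Myc on the right and Etv5 on the left.

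The cumulus expansion genes, the known targets of Areg, Ereg and Btc signals before ovulation, were mostly low. Has2, Ptgs2 and Tnfaip6 had mean FPKM between 0.0178 and 0.520 on the 3 days and were not tested. Ptx3 and Vcan were tested and neither passed, with none at an unadjusted p under 0.05. Vcan, which encodes the matrix proteoglycan versican, was at 26.9, 30.2 and 28.4 FPKM.

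The summed level of epithelial markers was lower on the later days, as was that of Erbb2. The sums of the endothelial and fat cell lists were lower too. Summed endothelial markers ran from 57.6 to 60.9 FPKM on PD14, from 53.1 to 57.3 on PD15 and from 51.8 to 54.5 on PD16. For PD16 against PD14, 6 of 6 endothelial and 7 of 8 stromal genes had a negative difference, while 5 of 5 smooth muscle genes had a positive one. Summed over 13 epithelial markers, FPKM ran from 65.4 to 71.5 on PD14, from 56.0 to 63.5 on PD15 and from 48.1 to 53.8 on PD16, and no 2 days overlapped. Of the 7 tested, 6 had a negative and 1 a positive difference between PD14 and PD16, the latter being Upk3b, with a log2 difference of 0.05 from 9.90 FPKM on PD14. The 3 that passed were keratins, which fell: Krt8 from 23.3 to 16.4 FPKM (log2 change -0.48, limma adjusted p = 0.0222), Krt18 from between 9.40 and 10.8 to a mean of 7.09 (-0.45, 0.0121) and Krt19 from 11.0 to 7.96 (-0.42, 0.0335). All 3 keratin calls were lost without PD16 replicate 1, where the adjusted p of Krt18 was 0.0510. The Krt8 call was lost in 3 of the 9 fits with a library left out (PD14 replicates 2 and 3 and PD16 replicate 1) and the Krt19 call in 6 (every PD14 and PD16 library), with adjusted p of up to 0.0825 and 0.106 over the 19 alternatives. The sign of these keratin changes was that of Erbb2, which epithelial cells are known to express, and the part of these cells in the Erbb2 change was not tested. Summed markers of the Schwann cell and nerve list, cells in which Erbb3 is known, ran from 18.6 to 23.6 FPKM on PD14, from 18.4 to 20.8 on PD15, which overlapped with PD14, and from 17.2 to 18.4 on PD16. None of its 4 tested genes passed, and for PD16 against PD14 their differences were 2 positive and 2 negative.

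Of the granulosa cell markers, Amh rose from 176 to 245 FPKM between PD14 and PD16 (log2 change 0.47, limma adjusted p = 0.0223) and Cyp19a1, the aromatase, fell from 5.11 to 2.37 (-0.84, 0.0316), and their summed level overlapped between the days. The direction for Cyp19a1 is opposite to the study's qRT-PCR of ovaries, which reported an increase on PD15 and PD16. In the oocyte list, 9 of 12 genes had a negative difference from PD14 to PD16 (median -0.23), and the summed level on PD16, 958 to 1022 FPKM, was below that of every PD14 library, 1028 to 1264 FPKM. On PD15 the summed level was above both, at 1281 to 1353 FPKM, and 8 of the 12 genes had a positive difference from PD14 (median 0.13). The 1 gene of this list called for PD16 against PD14 was positive, as Bmp15 rose from 49.7 to 65.4 FPKM between PD14 and PD16 (0.39, 0.0331), and Zp2 fell from 268 to 176 between PD15 and PD16 (-0.61, 0.0427). Cnn1, a smooth muscle marker, rose from 7.65 to 12.2 FPKM between PD14 and PD16 (0.61, 0.0348). Between PD14 and PD15 the haemoglobin gene Hba-a1 fell from 87.4 to 33.7 FPKM (-1.35, 0.0381) and the fat cell gene Plin1 from 6.97 to 4.23 (-0.60, 0.0377), and Plin1 was also lower on PD16 at 4.65 (-0.50, 0.0294). All p-values here are from limma, and each of these calls was lost in at least 3 of the 9 fits with a library left out. The stromal, theca and endothelial lists had no gene past the threshold. In the fat cell list Plin1 was the 1 tested gene of 5, and Adipoq, Fabp4, Cidec and Lep averaged 0 to 0.277 FPKM on PD14. Whether any of these cell markers bear on Hbegf or Erbb2 was not tested.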

How the data were processed

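The data comprised 9 libraries of mouse ovaries, 3 for each of PD14, PD15 and PD16, prepared with the NEBNext Ultra RNA kit for Illumina sequencing. The authors deposited FPKM in 1 table per library. The submitters' processing notes name HISAT2 2.0.5 and mm10, and the counting tool and annotation are not given in the sources used here.

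FPKM was used as deposited. Exon lengths of GENCODE M21, which held 97.0% of the identifiers, gave whole fragments (within 0.05) for 94.4% to 94.8% of low values per library, and hence depth. Floors (3 fragments) cover counting error only, and limma intervals reflect the spread between libraries. Genes whose mean FPKM exceeded 1 for any day were tested as log2(FPKM + 1) by limma with an intensity trend, all 9 libraries in 1 model and Benjamini-Hochberg adjustment over 15495 genes. Exact permutation tests used the between-day sum of squares over the 3 days. They were one-sided by construction, and differences in either direction raise this sum. With 3 libraries against 3 an exact test of 2 days cannot reach 0.05, so none is given. P-values set the difference between days against the spread between these libraries.

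On simulated data of 15495 genes for PD16 against PD14, 51.5%, 89.5% and 97% of 200 changed genes were recovered at log2 changes of 0.5, 1 and 2, and 7.21%, 6.77% and 5.83% of the called genes were unchanged ones. The genes, lists and tests were chosen with earlier results of these data known. Named genes were all 9, list genes past the threshold (at most 5 per list) or else the most abundant, and the 3 closest in profile. Further genes were chosen with their values in view. Alternatives comprised pseudocounts of 0.1 and 0.5, other filters, median-ratio and quantile scaling, limma without the trend or with robust estimates, only the 2 days compared in the fit, a replicate block, and leaving out each library. Software was limma 3.58.1 under R 4.3.3, and Matplotlib 3.10.9, SciPy 1.17.1, pandas 2.3.3 and NumPy 2.4.6 under Python 3.11.15.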

Additional observations from a re-analysis of the deposited data

How the results depend on the processing

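The number of genes called depended on the settings. With no filter on low values, limma called 29, 172, 24 and 95 genes for PD15 against PD14, PD16 against PD14, PD16 against PD15 and the 3 days together, in place of 105, 659, 113 and 469, and 0 of the 9 genes in any comparison. With only the 2 days compared in the fit, 47 genes were called for PD15 against PD14 and 320 for PD16 against PD14, of which Hbegf was the 1 member of the set. Without the intensity trend Hbegf was likewise the 1 called. Pathway list genes fell from 7 to 0 with no filter and with only the 2 days in the fit, and to 4 under quantile normalization, where 1 was called in PD16 against PD15, as with no intensity trend.

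With the replicate number as a block, 24, 227, 56 and 127 genes were called, with Hbegf the 1 called of the 9 in PD16 against PD14 (adjusted p = 0.0446, and 0.0507 for Erbb2), 0 over the 3 days, and 0 pathway list genes. The replicate numbers did not pair the libraries: deviations of same-numbered libraries correlated at -0.214 to 0.159, 2 of 9 pairs were above 0.1, and 5 of 18 best matches were with the own number.

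With each library left out in turn, 3 to 92 genes were called for PD15 against PD14, 92 to 660 for PD16 against PD14, 14 to 125 for PD16 against PD15 and 100 to 354 over the 3 days. Of the 9 genes, 0 to 2 were called for PD16 against PD14, 0 to 1 over the 3 days, and 1 to 4 had an exact permutation p under 0.05, in place of 3. With all libraries, 18.5% of tested genes were under 0.05 in that test, and none passed after adjustment. Pathway list genes ranged from 0 to 4 for PD16 against PD14, 0 to 2 for PD16 against PD15 and 0 to 4 in all.

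Of the tested genes, 2 had a difference that changed sign: that of Egfr for PD15 against PD14 was -0.00803 under quantile normalization and ran from -0.0480 (without PD14 replicate 3) to 0.0379 with a library left out, being -0.0295 without PD15 replicate 1, and that of Erbb3 for PD16 against PD15 was 0.00563 under quantile normalization. Of the genes below the filter, with a library left out, Nrg1 for PD16 against PD15 ran from -0.116 to 0.0316, Btc for PD15 against PD14 from -0.0192 to 0.0541, Areg for PD16 against PD15 from -0.0136 to 0.0171 and Erbb4 for PD16 against PD14 from -0.00798 to 0.00408. Depth limited Areg and Erbb4, at no more than 10 fragments in a library. The causes of these dependencies were not tested.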
